A study of Mus musculus with 2 samples.

Results

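CTCF-bound regions around the CD3 cluster and other genes of T cell receptor signalling were described in 1 chromatin immunoprecipitation sequencing (ChIP-seq) library of mouse thymocytes. The genes were Cd3e, Cd3d, Cd3g, Cd247, Lck, Zap70 and Ptcra. Regions were made by joining adjoining 25-bp windows of the deposited peak track, and a region was kept if its midpoint lay in 1 of 5 fixed mm9 windows around these genes. This gave 61 of the library's 51660 regions on the autosomes and the X. The CTCF library came from CD4+CD8+ (DP) thymocytes of C57BL/6 mice aged 4 to 8 weeks, of genotype Rag1 -/- with TCRbeta transgene, fixed in 1% formaldehyde for 10 minutes. An input library of the same strain, age and genotype is listed beside it and was not analysed here. The absence of Rag1, a recombinase that assembles antigen receptor genes, is thus shared by both libraries, as is the rearranged beta chain gene. The labels give neither the promoter that drives the transgene, the number of mice, nor how the DP cells were separated, and binding positions hold no expression values against which the cell type could be checked. No replicate of the CTCF library exists in the labels, so no test between conditions was made.

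The T cell receptor recognises antigen but has no enzyme activity of its own. Its signal passes through the CD3 epsilon, delta and gamma chains (Cd3e, Cd3d, Cd3g) and the zeta chain (Cd247), whose tails carry tyrosine motifs. Lck, a kinase bound to the co-receptors CD4 and CD8, phosphorylates these tyrosines, and the kinase Zap70 then docks on them and carries the signal on. Ptcra encodes the pre-T alpha chain, a stand-in for the alpha chain that pairs with a new beta chain before the DP stage. CTCF recognises DNA through an array of zinc fingers and halts the cohesin ring there, which forms loops that can bring enhancers and promoters together or keep them apart.

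The genes fall into 5 genomic places. In the RefSeq gene order of GRCm38, which was used only for names and neighbours, Cd3g, Cd3d and Cd3e follow each other between Ube4a and Mpzl2. Cd247 lies between Creg1 and Pou2f1, Lck between Hdac1 and Fam167b, Zap70 next to Tmem131, and Ptcra next to Cnpy3. No annotation of mm9 was used. A region is therefore given by its window and position only, and whether it lies in a gene, exon, intron or promoter was not analysed here.

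The promoters of the 7 genes show what the start sites look like in sequence, although no region could be placed on one of them. All 7 genes matched the RefSeq promoter table (GRCm38.p6, 250 bases before to 50 after a start), with 10 promoters in all, 2 for Lck and 3 for Zap70. The core of the CTCF motif was searched on both strands as CC, 3 free bases, AG, 2 free bases and GGC. These letters were in 8.61% of the table's 32851 promoters, in 0 of the 10 promoters of the 7 genes, and in 3 of 18 promoters of 15 other signalling genes, out of a list of 20. The shorter end of this core, AGNNGGC, which overlaps it, was in 59.8% of all promoters and in 6 of the 10. An ETS-type pattern, CAGGAAGT, was in 3.33% of all promoters and in 4 of the 10, namely those of Cd3e and Cd247 and both of Lck. It was in 2 of the 18 promoters of other signalling genes. Its variant GAGGAAGT was in 3.2% of all promoters and in 0 of the 10. The shorter AGGAAG, part of both, was in 35.4% and in 7 of the 10. The E box CAGCTG was in 16.3% of all promoters and in 2 of the 10, those of Cd3g and Ptcra. Among the 18 it was in 3. In all 16 patterns were searched and the ETS-type and E box patterns were picked after their matches had been seen, so their counts are a description only. The 250 bases before the start are shown for the promoters where these letters stand before the start, with the CAGGAAGT pattern (ACTTCCTG on the other strand) or the E box in capitals. GRCm38 positions given here are not comparable with the mm9 positions of the regions.
Cd3e promoter, chr9:45009612-45009861, GRCm38.p6, minus strand: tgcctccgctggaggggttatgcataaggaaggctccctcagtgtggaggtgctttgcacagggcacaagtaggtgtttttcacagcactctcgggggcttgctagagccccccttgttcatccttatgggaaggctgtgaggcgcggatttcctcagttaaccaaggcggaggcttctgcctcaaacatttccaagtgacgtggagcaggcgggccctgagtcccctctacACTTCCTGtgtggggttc
Cd247 promoter, chr1:165788431-165788680, GRCm38.p6, plus strand: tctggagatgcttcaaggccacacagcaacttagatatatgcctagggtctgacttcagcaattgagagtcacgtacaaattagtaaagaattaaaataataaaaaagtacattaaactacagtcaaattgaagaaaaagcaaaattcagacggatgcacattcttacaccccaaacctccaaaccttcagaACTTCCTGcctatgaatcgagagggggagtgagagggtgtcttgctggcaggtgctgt
Lck promoter, the more upstream, chr4:129573642-129573891, GRCm38.p6, minus strand: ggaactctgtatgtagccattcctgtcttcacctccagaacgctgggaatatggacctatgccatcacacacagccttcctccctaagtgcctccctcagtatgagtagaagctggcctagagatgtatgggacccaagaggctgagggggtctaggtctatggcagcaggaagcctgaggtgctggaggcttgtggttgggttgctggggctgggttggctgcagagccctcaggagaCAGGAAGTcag
Lck promoter, the more downstream, chr4:129558373-129558622, GRCm38.p6, minus strand: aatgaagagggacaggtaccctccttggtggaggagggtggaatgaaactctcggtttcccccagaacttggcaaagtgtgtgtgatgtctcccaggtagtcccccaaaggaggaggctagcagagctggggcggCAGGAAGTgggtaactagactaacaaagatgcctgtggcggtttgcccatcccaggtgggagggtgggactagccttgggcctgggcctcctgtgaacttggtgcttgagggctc
Ptcra promoter, chr17:46763713-46763962, GRCm38.p6, minus strand: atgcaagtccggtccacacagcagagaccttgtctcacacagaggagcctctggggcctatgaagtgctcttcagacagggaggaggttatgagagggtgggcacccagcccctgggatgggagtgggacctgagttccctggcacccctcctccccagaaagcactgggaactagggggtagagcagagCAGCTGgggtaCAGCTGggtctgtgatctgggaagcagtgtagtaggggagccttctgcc

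In these sequences the CAGGAAGT letters lie close to the start in Cd3e, at bases -18 to -11, and in the more upstream Lck promoter, at -11 to -4. They lie farther off in Cd247, at -58 to -51, with a second match after the start, and at -115 to -108 in the more downstream Lck promoter. Ptcra has the E box at -60 to -55 and at -49 to -44, and again after the start. Cd3d and Cd3g are read in opposite directions from starts 1.355 kb apart in that table. Base content was taken over the full 300 bases of a promoter, which include the 50 after the start that are not shown. Members of the CD3 cluster differ in it: the Cd3d promoter has 42.3% G and C with a single CG, that of Cd3g 54.0% with 4, and that of Cd3e 56.7% with 8. The median over all promoters of the table was 52.7% with 7.

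CTCF regions were more frequent per Mb in each of the 5 windows than over the whole library, least so in Ptcra. The 61 regions lay in 860 kb, which is 70.9 per Mb (exact 95% Poisson interval 54.3 to 91.1), against 19.6 per Mb over the whole library. They covered 29.4 kb or 3.42% of the windows, against 0.865% of the chromosomes. Such intervals cover counting error only and treat regions as independent. Per Mb the order was Lck with 100 (58.3 to 160.1), Zap70 with 73.3 (36.6 to 131.2), Cd3e/d/g and Cd247 with 65.0 each (34.6 to 111.2) and Ptcra with 50 (20.1 to 103.02). Each interval overlapped all the others, so the order of the 5 windows is not resolved by their counts.

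Set against all stretches of their own length in the genome, the windows differed in how unusual their number was. Stretches were laid end to end from the start of each chromosome. The 13 regions of the Cd3e/d/g window, and likewise the 13 of the Cd247 window, were reached by 7.67% of 13176 stretches of 200 kb, whose median was 2. For the 17 regions of the Lck window this share was 1.81% of 15502 stretches of 170 kb, and for the 11 of the Zap70 window 6.03% of 17569 stretches of 150 kb. The 7 regions of the Ptcra window were reached by 15.1% of 18827 stretches of 140 kb. All 5 numbers were above the upper quartile of their stretches (4 to 6 regions), and 1, that of Lck, was above the 95th percentile (13 regions). A large part of the genome has no listed region, with 36.6% to 42.5% of stretches holding none. Sequence to which no read can be aligned was not left out of the stretches. Nor was it left out of the length behind the library's density per Mb. Among stretches with at least 1 region the shares were 12.1% for Cd3e/d/g and Cd247, 2.97% for Lck, 10.3% for Zap70 and 26.3% for Ptcra. Which windows came under 5% depended on the setting. Against stretches of their own chromosome, Zap70 was at 3.2% and Cd247 at 4.47%, and with regions at most 1000 bp apart joined, Cd3e/d/g was at 4.05%. The share of Lck was 1.03% to 2.97% in the settings run. Stretches were not matched on genes, and whether gene density moves with these numbers was not tested.

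**Figure D1:**
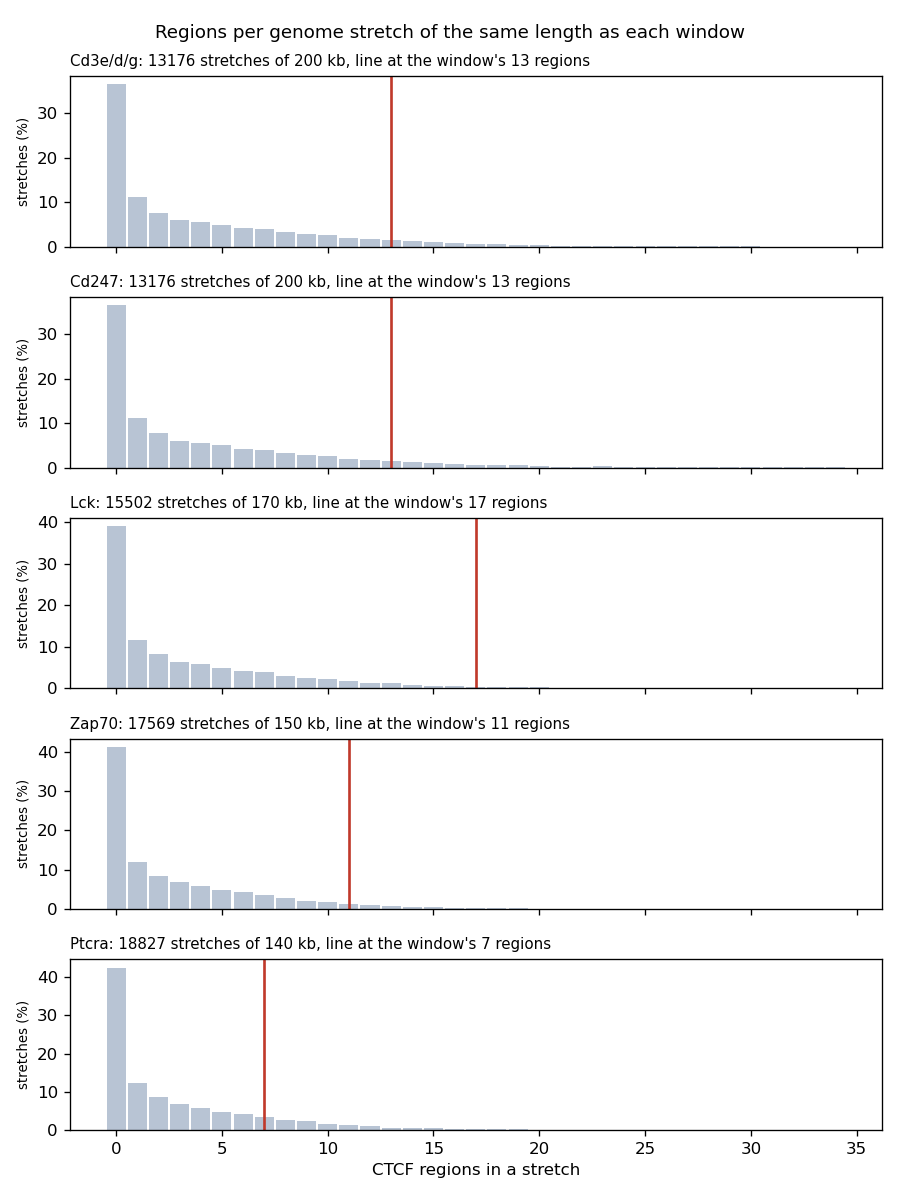
For each window, grey bars give the percentage of all genome stretches of its length (vertical axis) that held a given number of CTCF regions (horizontal axis), and the red line marks the window's own number. The tallest bar is at 0 regions in every panel, and the line lies farthest into the tail for Lck, where 17 regions were reached by 1.81% of stretches.

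The immediate neighbourhoods were dense as well, and 2 of the 5 windows held no more regions than their flanks. Within 500 kb on either side, the Cd3e/d/g window had 42 regions before it and 25 after it, or 6.7 per 100 kb against 6.5 in the window, a ratio of 0.970. Ptcra had 32 and 30, or 6.2 per 100 kb against 5.0, a ratio of 0.806. The other three windows held more than their flanks. Lck had 25 and 39 regions beside it (6.4 per 100 kb against 10.0, ratio 1.56), Zap70 34 and 14 (4.8 against 7.33, ratio 1.53) and Cd247 29 and 17 (4.6 against 6.5, ratio 1.41). In all 5 cases the rate of the flanks lay inside the window's own Poisson interval. These counts therefore do not set any window apart from its flanks.

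The flanks were uneven. The richest 100 kb beside Cd3e/d/g held 16 regions, in the bin farthest before the window, whereas the bin farthest after it held 1. After the Zap70 window 2 neighbouring bins of 100 kb held 0 regions, in a bare stretch of 214.0 kb (36994921 to 37208920 on chromosome 1). Beside Ptcra the count per bin ran from 1 to 10, beside Lck from 1 to 11 and beside Cd247 from 2 to 9.

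**Figure D2:**
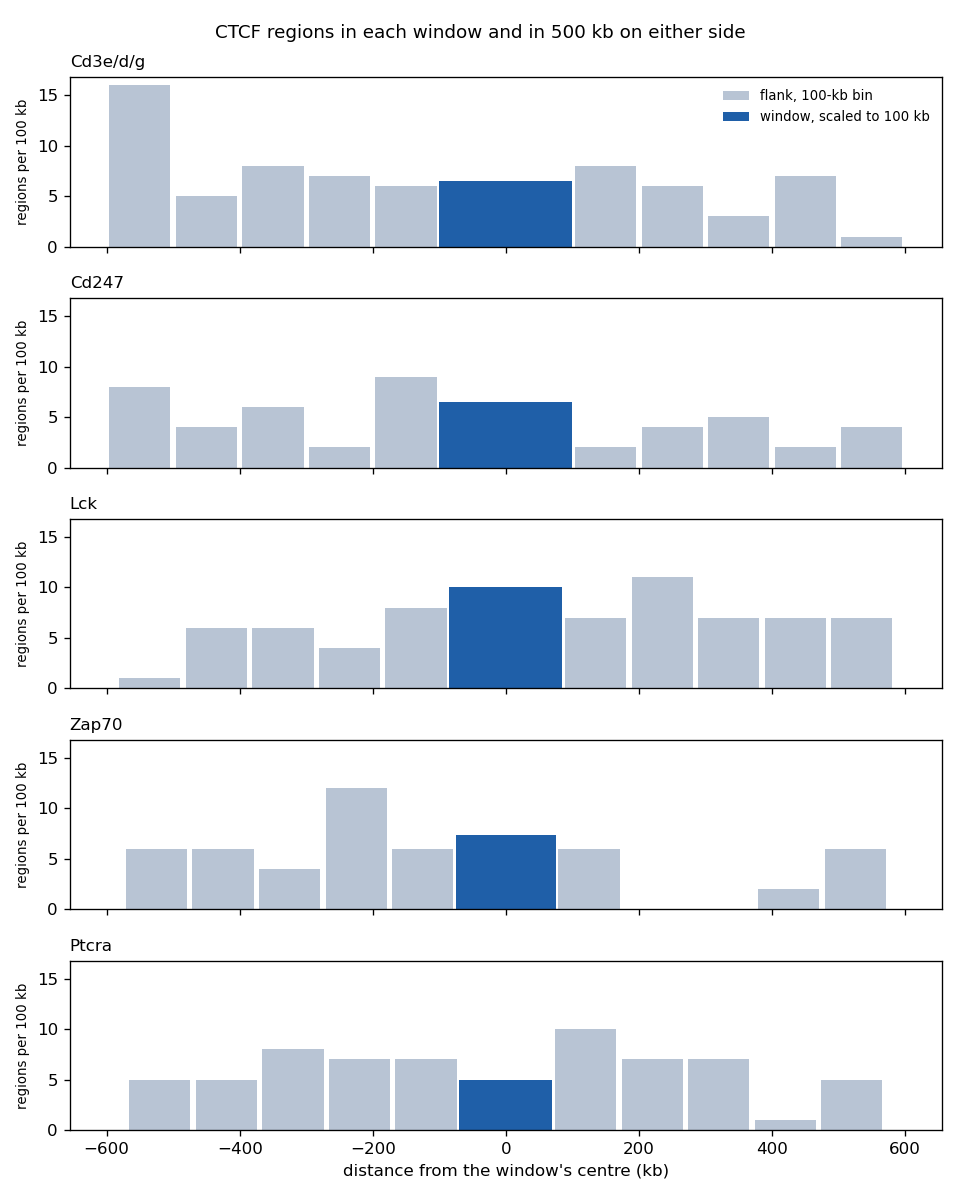
Regions per 100 kb (vertical axis) by distance from the centre of each window in kb (horizontal axis), with grey bars for 100-kb bins of the flanks and a blue bar for the window scaled to 100 kb. The blue bar of Lck, at 10.0, is taller than all of its flanking bins but 1, while that of Ptcra, at 5.0, is below 6 of its 10 bins.

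In the window of the CD3 cluster (chromosome 9, 44700000 to 44900000) the 13 regions were mostly single at a distance of 5 kb. They formed 12 groups when regions at most 5 kb apart were put together, and 11 of these groups were single regions. That distance was chosen after the positions had been seen. Gaps of 5.075 and 5.1 kb lay just above it, so the number of single regions rests on it. The share of single regions over the library at that distance was not computed. The shortest gap was 2000 bp, so 0 of 12 gaps were of 1 kb or less. Over the library 15.1% of gaps between neighbouring regions were that short, and 12 gaps are too few to tell these apart. The only neighbours at most 5 kb apart were a pair of equal width, 625 bp each, at 44774776 to 44775400 and 44777401 to 44778025, with 2.0 kb between them.

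Around that pair the CD3 window had a middle part with regions 5.1 to 18.35 kb apart. Beyond the pair came a region of 275 bp (44788451 to 44788725), then 525 bp (44807076 to 44807600) and 500 bp (44817226 to 44817725). These were followed by 650 bp (44822826 to 44823475) and 600 bp (44830751 to 44831350). The gaps between the 6 regions from the second of the pair onward were 10.425, 18.35, 9.625, 5.1 and 7.275 kb. Both ends of the window had a long bare stretch beside shorter gaps: the gaps were 15.175, 5.075 and 44.9 kb at the low-coordinate end and 25.15, 6.35 and 35.45 kb at the high-coordinate end. The low-coordinate end held regions of 525 bp (44708426 to 44708950) and 650 bp (44724126 to 44724775). A lone 25-bp region (44729851 to 44729875) came next, and then a bare stretch of 44.9 kb up to the pair. At the high-coordinate end lay 625 bp (44856501 to 44857125), a further lone 25-bp region (44863476 to 44863500) and 400 bp (44898951 to 44899350). That last region had its midpoint 0.85 kb inside the window's bound, the closest of any member to a bound, and the next region beyond the bound was 27.675 kb outside it.

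Around Cd247, the zeta chain gene (chromosome 1, 167650000 to 167850000), 13 regions were found. Put together at 5 kb or less they formed 8 groups, 5 of them single regions. With gaps of up to 8.575 kb bridged, the nearest run on either side of a bare middle is called the first or second cluster here. That looser distance would also join neighbours in the CD3 window, so the naming marks no difference between these windows. The first cluster held the widest region of all 61, 1250 bp at 167709846 to 167711095. It followed regions of 650 bp each at 167701546 to 167702195 and 167705496 to 167706145, with gaps of 3.3 and 3.7 kb, so that 3 regions of 650 bp or more lay within 9.55 kb. Regions wider than 1 kb were 1 of the 61 members and 1.04% of the library. After it came 175 bp (167718721 to 167718895) and 575 bp (167719346 to 167719920), 450 bp apart.

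A stretch of 54.775 kb without a region, the longest inside any of the 5 windows, followed at 167719921 to 167774695. The second cluster began after it with 250 bp (167774696 to 167774945). It went on with 25 bp (167783521 to 167783545), 700 bp only 100 bp later (167783646 to 167784345) and 600 bp (167788421 to 167789020). Ahead of the first cluster stood a short region of 125 bp (167660946 to 167661070), with one of 625 bp (167666146 to 167666770) and, farther on, one of 275 bp (167691796 to 167692070). A region of 550 bp (167821746 to 167822295) lay alone at the far end, 32.725 kb after the second cluster and 74.75 kb before the next region outside the window.

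Around Ptcra, the pre-T alpha gene (chromosome 17, 46820000 to 46960000), 7 regions were found. None was of 75 bp or less, against 14.1% of the library, and 7 regions are too few to tell these apart. The regions made 2 sets of 3 with a gap of 34.475 kb between them. The first set comprised 675 bp (46862127 to 46862801), 550 bp (46864877 to 46865426) and, 7.525 kb later, 625 bp (46872952 to 46873576). The second comprised 250 bp (46908052 to 46908301), 900 bp (46910252 to 46911151) and, 8.625 kb later, 650 bp (46919777 to 46920426). The seventh region, of 100 bp (46953377 to 46953476), lay 32.95 kb farther on. The median width of 625 bp was the highest of the 5 windows, with 7 regions behind it. The first member lay 42.4635 kb inside the low bound, and a region of 550 bp had its midpoint 2.824 kb outside that bound.

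Around Lck, the kinase that starts the signal (chromosome 4, 129150000 to 129320000), the 17 regions had no long bare stretch between them. The longest gap between members was 24.95 kb, and 0 of these 16 gaps were over 30 kb. Toward the neighbours outside the window the gaps were longer, 35.475 kb before the first region and 42.025 kb after the last. Each of the other 4 windows had 2 gaps over 30 kb between members, which made 8 of 56 over all windows, or 14 of 66 with the gaps across the bounds, compared with 29.5% of gaps in the library. A run of 7 regions of 575 to 950 bp, with 1 of 50 bp behind them, is called the core here (129217111 to 129266560). The name goes by the widths of these regions and not by their spacing. The core holds a gap of 21.15 kb, whereas the gap that follows it is shorter, 11.15 kb. The core opened with a pair of 625 and 575 bp (129217111 to 129217735 and 129218911 to 129219485), 1.175 kb apart. It went on with 600 bp (129226386 to 129226985) and 625 bp (129232436 to 129233060). After 21.15 kb came 650 bp (129254211 to 129254860) and 600 bp (129259386 to 129259985). They were followed by 950 bp (129261986 to 129262935), the widest of this window, and by the 50 bp at 129266511 to 129266560.

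Outside this core the Lck window held a mixture of short pieces of 25 to 150 bp and wider regions, among them 700 and 675 bp. Since the core was named by its wide regions, this contrast in width follows from that choice. Ahead of the core, regions of 325 bp (129168586 to 129168910) and 550 bp (129172861 to 129173410) lay 3.95 kb apart. Farther on, 50 bp (129190361 to 129190410) stood 1.05 kb before 700 bp (129191461 to 129192160). Behind it lay 350 bp (129277711 to 129278060) and a broken stretch of 675, 50 and 150 bp (129285761 to 129286435, 129286511 to 129286560 and 129287236 to 129287385). The last region was a lone 25 bp (129296336 to 129296360). Regions of at most 75 bp were 4 of 17 here, against 14.1% of the library. They were 2 of 13 in Cd3e/d/g, 1 of 13 in Cd247, 1 of 11 in Zap70 and 0 of 7 in Ptcra. Counts this small do not set the windows apart.

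Around Zap70, the kinase that docks on the phosphorylated chains (chromosome 1, 36750000 to 36900000), 11 regions made 3 compact groups and 3 single regions. The first group was a pair of 675 and 650 bp (36801296 to 36801970 and 36803171 to 36803820), 1.2 kb apart. The second, 37.525 kb on, was a run of 800, 225 and 550 bp (36841346 to 36842145, 36842196 to 36842420 and 36843146 to 36843695) within 2.35 kb. The last group, 35.0 kb farther, was 475, 25 and 550 bp (36878696 to 36879170, 36881396 to 36881420 and 36881446 to 36881995).

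The single regions of the Zap70 window were one of 675 bp at its low-coordinate side (36765946 to 36766620), one of 625 bp (36794021 to 36794645) just ahead of the pair, and one of 350 bp (36889846 to 36890195) at the far end. Gaps of 1 kb or less were 15.1% of those in the library and 3 of 10 in this window, too few to set it apart. The shortest, 25 bp, is the length of a single deposited window, so how many regions these groups hold rests on how pieces are joined. With regions at most 1000 bp apart joined, the Zap70 window held 8, while Cd3e/d/g and Ptcra still held 13 and 7.

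**Figure D3:**
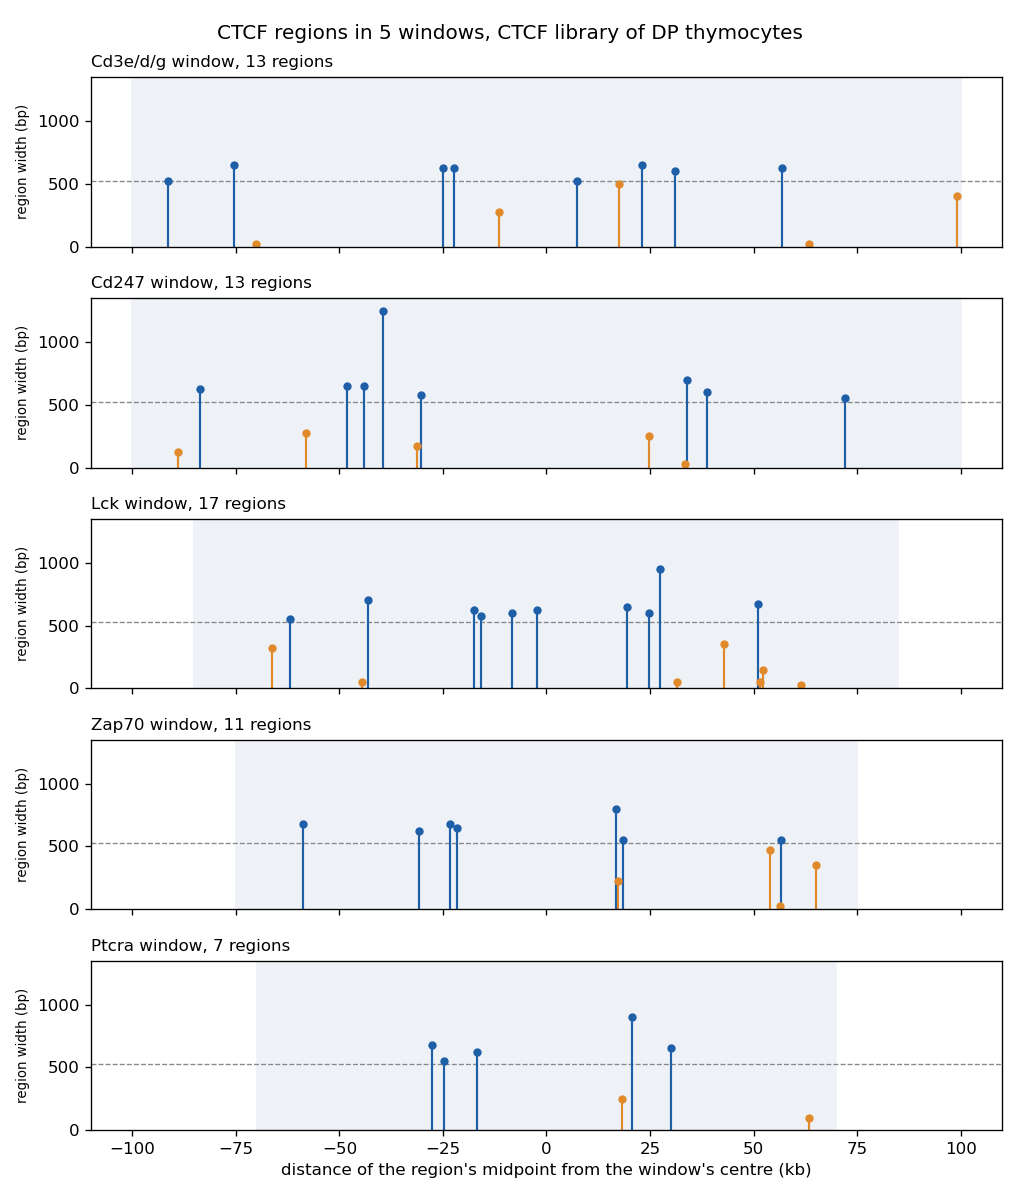
Each stem is 1 CTCF region, placed by the distance of its midpoint from the centre of its window in kb (horizontal axis) and as tall as its width in bp (vertical axis); blue marks regions of at least the library median of 525 bp (dashed line), orange narrower ones, and the shaded band the window. No stems are closer than 2000 bp in Cd3e/d/g, Cd247 has a bare 54.775 kb, and at most 24.95 kb lies between stems in Lck.

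The file gives no height or read count, so the width of a region was the only measure of its size. Members were somewhat wider than the library, with a median of 575 bp (quartiles 275 and 650 bp, n = 61) against 525 bp (225 and 625 bp, n = 51660). Regions of at least 525 bp made up 38 of the 61, or 62.3% (95% Wilson interval 49.7 to 73.4), against 51.8% of the library, which lies inside that interval. Those within 50 bp of the library's most frequent width, 625 bp, were 25 of 61, against 35.3% of the library. Regions of at most 75 bp were 8 of 61, against 14.1%. Of these 8 short regions, 3 had another region within 1 kb, against 65.3% of the short regions of the library, and 8 are too few to tell these apart. The 5 without one included both of those in the CD3 window.

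**Figure D4:**
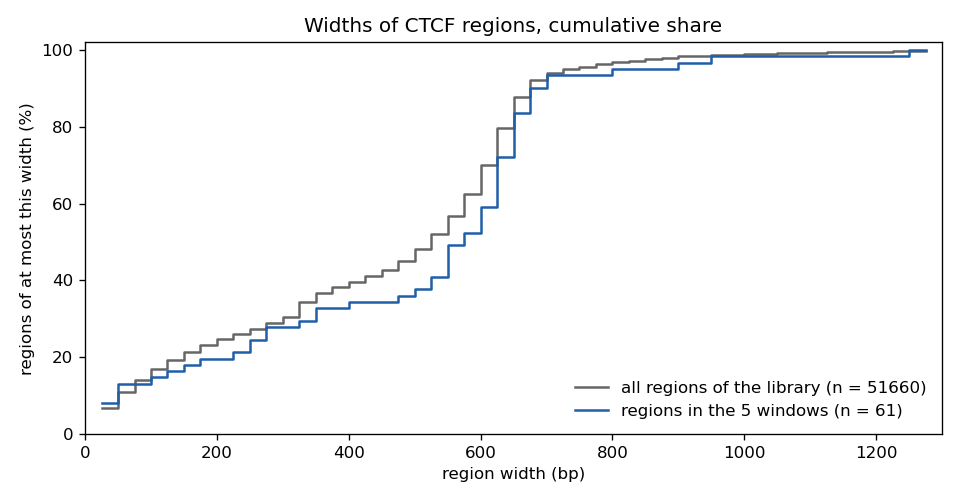
Cumulative percentage of CTCF regions (vertical axis) by width in bp (horizontal axis), for the 61 regions in the 5 windows (blue) and all 51660 of the library (grey). The blue line lies below the grey one at every plotted width from 75 to 1225 bp, and the medians are 575 and 525 bp.

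The median gap between neighbouring members was 7.09 kb (quartiles 2.19 and 17.3 kb, 56 gaps) against 13.1 kb in the library (3.325 and 36.7 kb, 51640 gaps). More regions per Mb leave shorter gaps, so this largely restates the density given above and is no separate trait. Counting only gaps inside the windows leaves out long ones, since the 10 gaps that cross a bound were 14.625 to 74.75 kb and 6 of them were over 30 kb. With these counted, in a setting chosen after seeing the data, the median was 8.21 kb (quartiles 3.61 and 25.1 kb, 66 gaps), with no test of the difference from the library. Gaps of 1 kb or less, however, were 7 of 56 (12.5%), near the 15.1% of the library. None of the 7 was in Cd3e/d/g or Ptcra, which have too few gaps to be set apart by this. Median gaps by window were 10.03 kb in Cd3e/d/g, 8.08 kb in Ptcra, 6.35 kb in Cd247, 4.99 kb in Lck and 4.44 kb in Zap70.

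Each of the 5 windows held at least 1 pair of regions of 525 bp or more that lay at most 5 kb apart, a distance chosen after the positions had been seen. There were 10 such pairs: 3 in Cd247, 3 in Lck, 2 in Zap70 and 1 each in Cd3e/d/g and Ptcra. Of the 38 wide members 18 (47.4%) had another wide region within 5 kb, against 30.3% of wide regions in the library. Within 2.5 kb the count was 12, against 18.2%, and within 10 kb it was 27, against 46.0%. Among stretches of the same length, such a pair was present in 18.7% of those of 200 kb, 16.6% of those of 170 kb, 15.1% of those of 150 kb and 14.5% of those of 140 kb. Among stretches with at least as many regions as the window, however, it was present in 81.2% for Cd3e/d/g and Cd247, 94.3% for Lck, 78.5% for Zap70 and 61.2% for Ptcra. A close wide pair was therefore common in stretches this dense.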

How the data were processed

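CTCF ChIP-seq and input libraries of DP thymocytes are listed (1 of each). Per the submitters' processing notes, Bowtie and mm9 were used for alignment. Nothing used here gives its version, the peak caller, its threshold or the role of the input. The authors deposited 912174 peak windows of 25 bp, with no height, count or score, so depth is unknown. Starts were read as counted from 0 and are printed counted from 1.

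Adjoining windows (gap 0 bp) were joined into 51661 regions, and 1 on the mitochondrial genome was left out. Windows around the 7 genes came from the stated rule. All regions in them are named. Members, windows and lists were chosen with earlier results of these data known. Densities carry exact 95% Poisson intervals. Joining and counting were checked on simulated regions. Alternatives joined regions at most 100, 500 or 1000 bp apart, left out those of at most 75 bp, kept those of at least 525 bp, counted any overlap, or changed the stretches compared. Computation used pandas 2.3.3, NumPy 2.4.6 and SciPy 1.17.1 in Python 3.11.15, with figures by matplotlib 3.10.9.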

Additional observations from a re-analysis of the deposited data

How the results depend on the processing

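Of 65 alternative values, 47 stayed close to those reported (counts and spacings within 1.5 times, shares within their 95% Wilson interval) and 18 moved. The number of regions in the 5 windows was 53 to 61 after joining, leaving out short regions or counting any overlap, and 38 with only regions of at least 525 bp, fewer by construction. After joining or leaving out short regions, the share of wide regions was 66.7% to 71.7%, beside 56.7% to 60.3% in the library, which lay inside the members' interval each time. The median gap was then 7.58 to 7.70 kb beside 15.5 to 17.8 kb in the library, and 8.21 kb with gaps across the window bounds counted. The share of stretches with at least as many regions moved most. Against the same chromosome only it was 8.23% for Cd3e/d/g, 4.47% for Cd247, 3.2% for Zap70 and 21.8% for Ptcra. With regions at most 1000 bp apart joined it was 4.05% for Cd3e/d/g, 1.03% for Lck, 9.04% for Zap70 and 10.9% for Ptcra. In that setting the library held 43881 regions instead of 51660. Cd3e/d/g still held 13 and Ptcra 7, whereas Lck held 15 instead of 17 and Zap70 8 instead of 11. How much each of these counts moved the shares was not tested. With only stretches of at least 1 region, a setting chosen after seeing the data, it rose to 12.1% for Cd3e/d/g and for Cd247, 2.97% for Lck, 10.3% for Zap70 and 26.3% for Ptcra, since empty stretches left the denominator. No paired analysis was possible because there is 1 CTCF library and no test. Without heights, counts or depth, a position that is not listed cannot be read as unbound.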
